A study of Rattus norvegicus with 8 samples.

Results

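The genes described here encode the subunits of the transcription factor NF-kB and the proteins that restrain it, and 12 probe sets for 9 of the 10 listed genes were measured among 31042 probe sets in all. They were chosen by gene symbol: each probe set whose platform annotation names a listed gene, and no other gene, was taken. Inhibitor genes (Nfkbia, Nfkbib, Nfkbiz and Tnfaip3) had 5 probe sets, and subunit genes (Rela, Relb, Nfkb1, Nfkb2 and Bcl3) had 7. Bcl3 encodes a partner of the subunits rather than a subunit, and is only counted with them here. Nfkbiz is counted with the inhibitors, though its product can help as well as restrain single target genes. Expression of the tenth gene, Nfkbie, is not analysed here, and only its promoter window is described. The study used a Langendorff apparatus without recirculation, which feeds an excised heart through its aorta, and perfused hearts of male Wistar rats for 2 h. In 4 hearts the perfusate held 2 µM doxorubicin, an anthracycline cancer drug that intercalates into DNA and poisons topoisomerase II, and in 4 control hearts it held no drug. The whole heart gave the RNA, each heart had its own Affymetrix array, and the hearts had no blood supply from a living animal during perfusion. The age of the rats is not stated in the labels. Hearts are named by group and by the replicate number in the labels (control 1 to 4, doxorubicin 1 to 4).

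NF-kB is a dimer of Rel-family proteins that waits in the cytoplasm, bound to inhibitors of the IkB family. Receptors for TNF, for interleukin-1 and for microbial products activate the IKK kinases, which mark IkB for destruction, and the freed dimer enters the nucleus and binds short DNA elements called kappa-B sites. Among the genes it switches on are those of its own inhibitors, chiefly Nfkbia and Tnfaip3, and of some of its subunits. The mRNAs of Nfkbia, Nfkbiz and Tnfaip3 are short-lived, and in the heart the pathway is known for its response to ischaemia, mechanical stress and infection.

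Kappa-B letters stand in the promoter windows of most of these genes, and 6 windows are printed. These windows belong to the 4 genes with a probe set that changed (Nfkbia, Nfkbiz, Nfkb1 and Rela) and to 2 inhibitors that did not pass (Tnfaip3 and Nfkbib). Each runs 5′ to 3′ on the gene's strand, from 250 bases before to 50 after the annotated start in RefSeq (assembly GRCr8), with matches to the kappa-B consensus on either strand in capitals. The Nfkbia window is chr6:78597023-78597322 (minus strand), the Nfkbiz window chr11:58251471-58251770 (plus strand) and the Nfkb1 window chr2:226805413-226805712 (minus strand). Those of the others lie on chromosome 1, at chr1:212354086-212354385 for Rela (plus strand), chr1:15543930-15544229 for Tnfaip3 (minus strand) and chr1:93181338-93181637 for Nfkbib (minus strand).
Nfkbia: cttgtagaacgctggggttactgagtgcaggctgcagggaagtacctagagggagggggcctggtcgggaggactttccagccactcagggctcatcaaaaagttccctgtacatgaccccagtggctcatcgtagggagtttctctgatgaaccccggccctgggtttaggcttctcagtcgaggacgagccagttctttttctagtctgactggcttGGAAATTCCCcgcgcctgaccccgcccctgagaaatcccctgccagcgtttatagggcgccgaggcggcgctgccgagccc
Nfkbiz: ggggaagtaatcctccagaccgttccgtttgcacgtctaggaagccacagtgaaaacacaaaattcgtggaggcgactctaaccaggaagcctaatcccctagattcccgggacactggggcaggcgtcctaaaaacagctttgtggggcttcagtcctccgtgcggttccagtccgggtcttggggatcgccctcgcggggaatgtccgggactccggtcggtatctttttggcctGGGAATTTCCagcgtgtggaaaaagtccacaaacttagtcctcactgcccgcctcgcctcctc
Nfkb1: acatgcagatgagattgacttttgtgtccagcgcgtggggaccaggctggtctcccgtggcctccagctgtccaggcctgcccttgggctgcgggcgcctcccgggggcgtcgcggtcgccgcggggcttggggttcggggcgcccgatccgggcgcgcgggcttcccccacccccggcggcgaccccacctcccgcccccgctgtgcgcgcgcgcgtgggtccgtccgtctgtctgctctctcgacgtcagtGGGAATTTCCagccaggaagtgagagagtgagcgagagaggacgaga
Rela: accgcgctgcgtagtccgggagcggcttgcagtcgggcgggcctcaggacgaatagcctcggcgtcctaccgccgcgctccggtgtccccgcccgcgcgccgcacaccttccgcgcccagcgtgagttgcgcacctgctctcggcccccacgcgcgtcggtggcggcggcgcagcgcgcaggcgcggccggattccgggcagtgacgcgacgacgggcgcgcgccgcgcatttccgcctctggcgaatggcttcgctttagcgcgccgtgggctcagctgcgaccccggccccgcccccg
Tnfaip3: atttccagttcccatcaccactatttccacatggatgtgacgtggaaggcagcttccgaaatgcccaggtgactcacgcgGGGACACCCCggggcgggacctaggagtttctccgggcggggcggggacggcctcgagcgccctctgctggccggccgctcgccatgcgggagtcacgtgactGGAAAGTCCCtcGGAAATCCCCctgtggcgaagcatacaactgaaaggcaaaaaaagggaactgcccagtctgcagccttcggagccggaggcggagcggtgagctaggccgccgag
Nfkbib: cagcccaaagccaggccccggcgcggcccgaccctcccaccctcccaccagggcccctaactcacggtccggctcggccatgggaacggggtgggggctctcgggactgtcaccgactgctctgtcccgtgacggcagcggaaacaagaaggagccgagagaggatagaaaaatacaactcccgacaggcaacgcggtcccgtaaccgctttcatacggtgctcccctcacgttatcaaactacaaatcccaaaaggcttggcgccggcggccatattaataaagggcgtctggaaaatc

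A window was at hand for 9 of the 10 listed genes, all but Relb, and 7 of the 9 held the consensus at least once. Over all 33469 windows of the same length, 4.18% held it. Nfkbia, Nfkbiz, Nfkb1, Nfkb2, Bcl3 and Nfkbie had 1 match each and Tnfaip3 had 3, while Rela and Nfkbib had none. The Nfkbia match lay 31 to 22 bases before the start and that of Nfkbiz 13 to 4 bases before it. The looser pattern GGGNNNNNCC, searched on both strands and containing every consensus match, stood in all 9 windows and in 47.3% of all windows. Windows of other genes include non-coding genes, and a match describes letters and not a bound site.

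**Figure D1:**
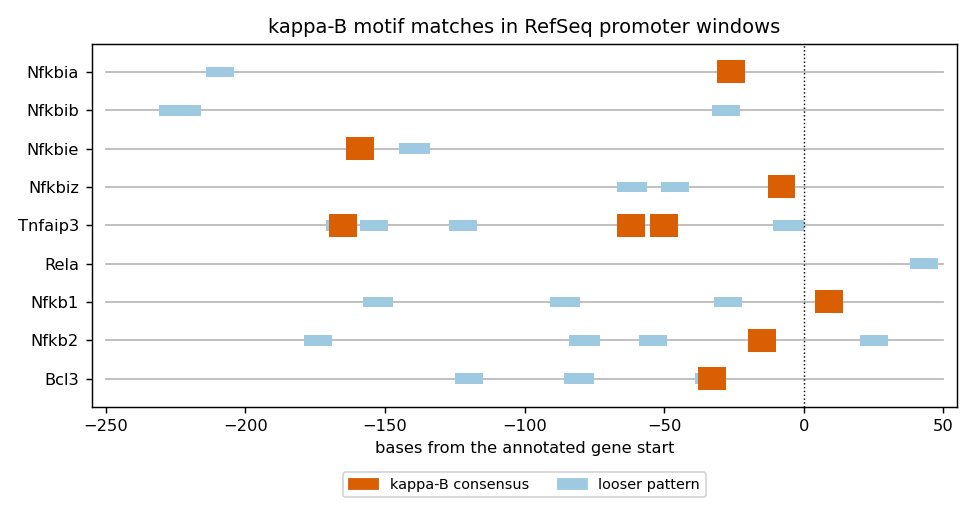
Matches to the kappa-B consensus (orange) and to the looser pattern GGGNNNNNCC (blue) in the promoter windows of 9 genes, by distance in bases from the annotated gene start (dotted line). Tnfaip3 has 3 consensus matches, Rela and Nfkbib have none, and the other 6 genes have 1 each.

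Doxorubicin hearts had less mRNA of the inhibitor Nfkbia, of the subunits Rela and Nfkb1 and, by its brighter probe set, of Nfkbiz. Nfkbia was 1.76-fold lower and the brighter Nfkbiz probe set 1.63-fold lower, while Rela and Nfkb1 were 1.27-fold and 1.28-fold lower (n = 4 and 4). The dimmer Nfkbiz probe set stood at -0.06 log2 and did not pass (limma adjusted p = 0.925). With the level of the hybridization controls of each array as a covariate, Nfkbiz (-0.33) no longer fell by more than Rela (-0.35), and no gene of the 4 was called. All 12 probe sets had a negative difference, against 50.9% of all probe sets. By the limma test, 4 of the 12 fell at an adjusted p under 0.05, 2 of 5 for inhibitors and 2 of 7 for subunits, and none rose. In the same comparison 1.52% of all probe sets were called lower and 0.689% higher. The groups did not overlap for 5 of the 12 probe sets, with doxorubicin hearts lower, as for 4.02% of all probe sets. Several probe sets read the same gene, so the 12 are not independent. Each log2 difference is given as doxorubicin minus control, its standard error (SE) comes from the limma fit, and p-values were adjusted by the Benjamini-Hochberg method across all 31042 probe sets.

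**Figure D2:**
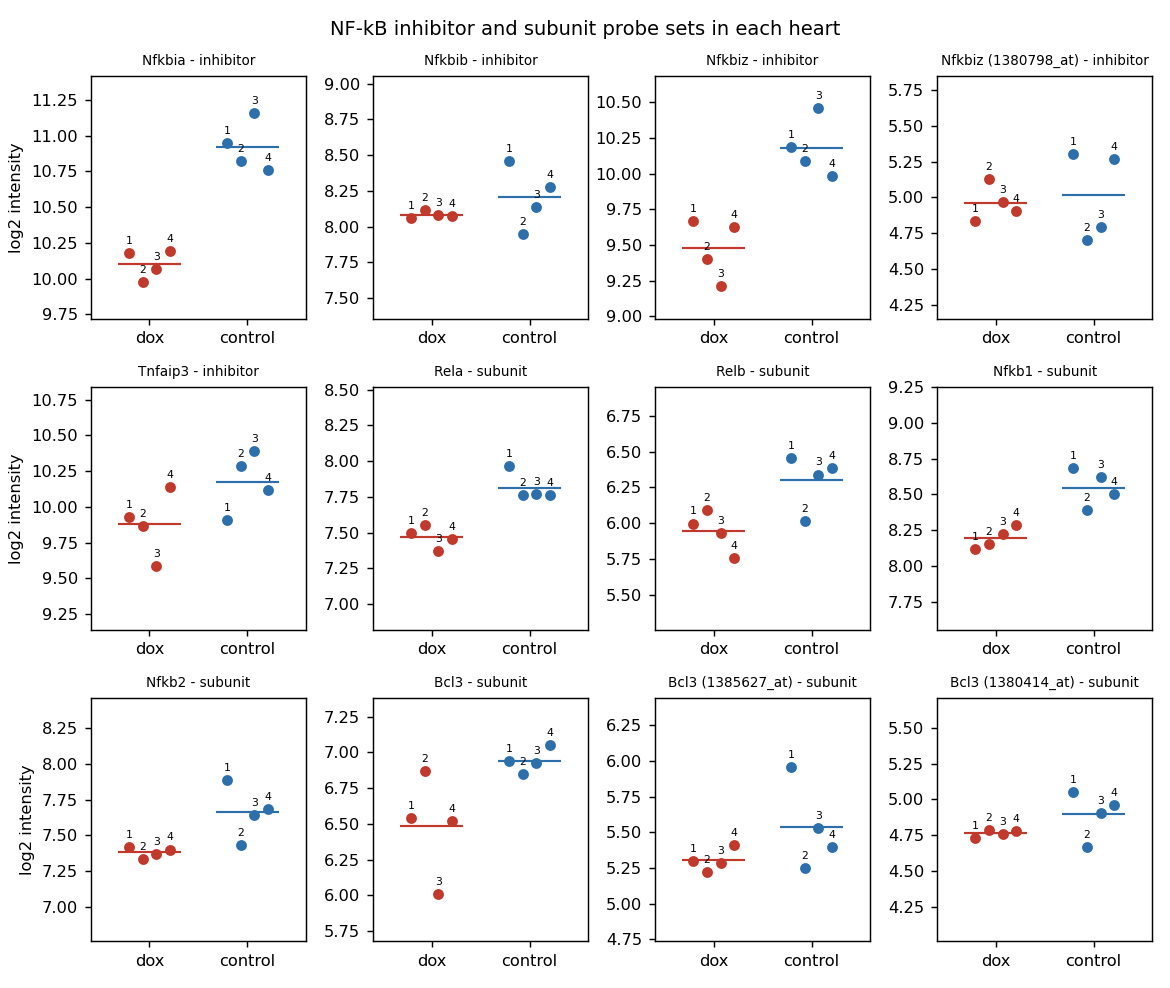
Log2 intensity of each of the 12 probe sets in doxorubicin hearts (red, left) and control hearts (blue, right), with replicate numbers beside the points and lines at group means, and every panel spanning the same log2 range. The groups stand apart for Nfkbia, the brighter Nfkbiz probe set, Rela, Nfkb1 and, narrowly, Nfkb2.

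Nfkbia encodes IkB alpha, the inhibitor that is destroyed and made anew in each round of NF-kB activity. It stood at 10.18, 9.98, 10.07 and 10.19 log2 in doxorubicin hearts 1 to 4, against 10.95, 10.82, 11.16 and 10.76 log2 in control hearts 1 to 4. The lowest control heart lay 0.57 above the highest doxorubicin heart, the widest gap of the 12 probe sets, and control 3 was the highest of all. The log2 difference was -0.82 (SE 0.09, 95% interval -1.03 to -0.61, limma adjusted p = 0.00164). Only 0.699% of all probe sets had a lower difference. Leaving out single arrays kept the call in all 8 cases, and the highest adjusted p was 0.00852.

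Nfkbiz encodes IkB zeta, a nuclear member of the family that binds NF-kB on DNA and helps or restrains single target genes. Its brighter probe set read 9.67, 9.40, 9.21 and 9.63 log2 in doxorubicin hearts 1 to 4 and 10.18, 10.09, 10.46 and 9.98 log2 in control hearts 1 to 4. As for Nfkbia, control 3 was the highest heart and the groups did not overlap. The difference was -0.70 (SE 0.13, 95% interval -0.98 to -0.42, adjusted p = 0.0193). The call was lost without doxorubicin 2 (adjusted p = 0.0632) and without doxorubicin 3 (adjusted p = 0.0507). A second, dimmer probe set averaged 4.96 ± 0.12 log2 in doxorubicin and 5.02 ± 0.31 log2 in control hearts (SD, n = 4), a difference of -0.06 (SE 0.14, 95% interval -0.37 to 0.26, adjusted p = 0.925). The probe sets of this gene therefore disagree, and the mean of both gave -0.38.

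Tnfaip3 encodes a ubiquitin-editing enzyme that shuts off signalling above IKK. It read 9.93, 9.87, 9.59 and 10.14 log2 in doxorubicin hearts, against 9.91, 10.29, 10.39 and 10.12 log2 in control hearts. The groups overlapped, since control 1 lay below doxorubicin 1 and doxorubicin 4, and control 4 lay below doxorubicin 4. Its difference of -0.30 did not pass (SE 0.13, 95% interval -0.59 to -0.0023, adjusted p = 0.362). Nfkbib encodes IkB beta, an inhibitor that is resynthesized more slowly than IkB alpha. It read 8.06, 8.12, 8.08 and 8.07 log2 in doxorubicin hearts and 8.46, 7.95, 8.14 and 8.28 log2 in control hearts. The doxorubicin hearts were nearly alike and lay within the spread of the control hearts. The difference was -0.13 (SE 0.10, 95% interval -0.34 to 0.09, adjusted p = 0.665), so a fall of up to 1.27-fold lies within the interval.

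**Figure D3:**
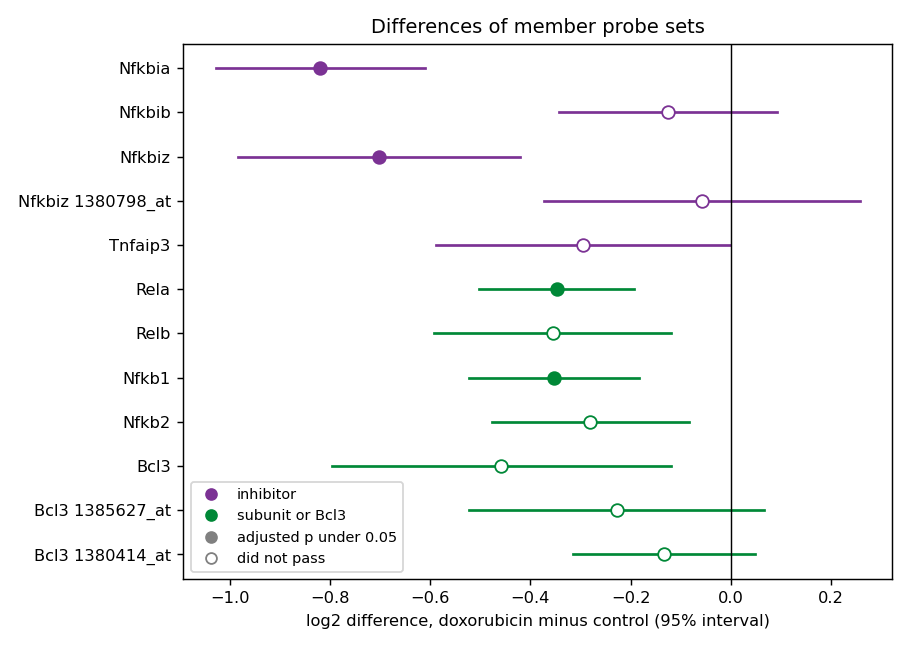
Log2 difference of each probe set, doxorubicin minus control, with its 95% interval from the limma fit, for inhibitors (purple) and for subunits with Bcl3 (green), where filled points have an adjusted p under 0.05. Nfkbia and the brighter Nfkbiz probe set lie at -0.82 and -0.70, and the brightest probe sets of the subunit genes lie between -0.46 and -0.28.

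Rela encodes the subunit that carries the main transcription-activating domain of classical NF-kB. It read 7.49, 7.55, 7.37 and 7.45 log2 in doxorubicin hearts 1 to 4, against 7.97, 7.76, 7.77 and 7.76 log2 in control hearts 1 to 4. The groups did not overlap, and control 1 stood above the other control hearts, which were nearly equal. The difference was -0.35 (SE 0.07, 95% interval -0.50 to -0.19, adjusted p = 0.0322). Nfkb1, whose product is the DNA-binding partner of the Rela protein and in its unprocessed form also an inhibitor, read 8.12, 8.15, 8.22 and 8.29 log2 in doxorubicin hearts and 8.68, 8.39, 8.62 and 8.50 log2 in control hearts. Doxorubicin 4 and control 2 came within 0.10 of each other without overlap. The difference was -0.35 (SE 0.08, 95% interval -0.52 to -0.18, adjusted p = 0.0461). Both calls lay near the threshold: Rela was called without control 1 or without control 2 but not without any one of the other 6 arrays (adjusted p up to 0.0985), and Nfkb1 was called only without control 2 (up to 0.15 without one of the others).

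Relb and Nfkb2 encode the pair of the alternative pathway, in which the Nfkb2 precursor is processed after signals such as lymphotoxin. Relb read 5.998, 6.09, 5.93 and 5.75 log2 in doxorubicin hearts, against 6.45, 6.02, 6.34 and 6.39 log2 in control hearts, where control 2 fell inside the doxorubicin range. Its difference of -0.36 did not pass (SE 0.11, 95% interval -0.59 to -0.12, adjusted p = 0.147). Nfkb2 stood at 7.42, 7.34, 7.37 and 7.40 log2 in doxorubicin hearts, against 7.89, 7.44, 7.64 and 7.69 log2 in control hearts. The groups missed each other by 0.02, with control 2 lowest among controls, and the difference of -0.28 did not pass either (SE 0.09, adjusted p = 0.171). Without control 2 both genes were called lower, Relb at -0.45 (adjusted p = 0.029) and Nfkb2 at -0.36 (adjusted p = 0.0395), and the number of called subunit probe sets was then 4.

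Bcl3 encodes a nuclear IkB-like protein that joins dimers of the Nfkb1 or Nfkb2 product and can activate or repress through them. Its brightest probe set read 6.54, 6.87, 6.01 and 6.52 log2 in doxorubicin hearts, against 6.94, 6.85, 6.92 and 7.05 log2 in control hearts. Doxorubicin 2 lay among the control hearts and doxorubicin 3 well below the rest of its group. The difference of -0.46 did not pass (SE 0.15, 95% interval -0.80 to -0.12, adjusted p = 0.197), nor did those of the dimmer probe sets, -0.23 (SE 0.13) and -0.13 (SE 0.08).

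Differences spread more widely among the inhibitors than among the subunits. The 4 inhibitor genes, each by its brightest probe set, had a median difference of -0.50 and ranged from -0.82 to -0.13. The 5 genes counted as subunits had a median of -0.35 and ranged only from -0.46 (Bcl3) to -0.28 (Nfkb2), with Relb next to Bcl3 at -0.36. The median over all 14217 genes was 0.0063. With the hybridization covariate the order of the medians turned, to -0.24 for inhibitor and -0.29 for subunit genes. Unequal change was tested in 6 pairs by the difference of log2 values within each array. Exact two-sided permutation tests ran over 70 splits, whose smallest p is 0.0286, and p-values were adjusted over the 6 pairs. Each pair set an inhibitor gene called lower against a member with a smaller fall, and no pair the other way round was tested. The p-values do not correct for that choice, so they describe these pairs and not inhibitors against subunits. Nfkbia fell by 0.47 more than Nfkb1, by 0.47 more than Rela, by 0.69 more than Nfkbib and by 0.52 more than Tnfaip3. Doxorubicin and control hearts did not overlap in any of these 4 pairs (exact p = 0.0286 and adjusted p = 0.0343 in each). Nfkbiz fell by 0.35 more than Rela, again without overlap (exact p = 0.0286, adjusted p = 0.0343), and by 0.35 more than Nfkb1 with overlap (exact p = 0.0857, adjusted p = 0.0857). These excesses shrank with the hybridization covariate, an alternative chosen for them after seeing the data and given with no test. Nfkbia minus Rela was then -0.19 (SE 0.16), Nfkbia minus Nfkb1 -0.25 (SE 0.10), Nfkbia minus Nfkbib -0.39 (SE 0.22) and Nfkbia minus Tnfaip3 -0.44 (SE 0.26). Nfkbiz minus Nfkb1 was -0.039 (SE 0.20), and Nfkbiz minus Rela turned sign, at 0.020 (SE 0.17).

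Profiles over the 8 arrays were compared by the root mean square difference of log2 values, each gene centred on its own mean. Of 13982 genes compared, the one nearest to Nfkbia was Nfkbiz (0.11 log2). Ccrl2, an atypical chemokine receptor gene (0.13), Decr1, which encodes a mitochondrial enzyme of unsaturated fatty acid oxidation (0.13), Atp10d, which encodes a phospholipid-transporting ATPase (0.13), and Tlr2, the receptor gene for bacterial lipoproteins (0.14), came next. The other genes of the family were farther from Nfkbia, from Nfkb1 at rank 206 to Nfkbib at rank 2149. The nearest to Rela were Tnfrsf1a, the gene of the main TNF receptor (0.05), the splicing factor gene Srsf4 (0.06), Tsc22d1 (0.06), C8h15orf39 (0.07) and the phosphatase gene Ppm1h (0.07). Nfkb2 stood at rank 55 and Nfkb1 at rank 61 from Rela, while Nfkbiz stood at rank 9104. The measure takes in the size of the doxorubicin difference as well as the spread within groups.

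Above NF-kB, receptor and adaptor genes fell in part, while no measured IKK gene passed. Of 28 receptor and adaptor genes measured out of 31 listed, 7 fell, 21 did not pass (1 of these was higher at an unadjusted p under 0.05) and none rose. Their median difference was -0.06, and 2 of the 28 lay in the dimmest 25% of probe sets. Among all 14217 genes 2.17% were called lower and 0.802% higher. Tnfrsf12a, the receptor gene for the cytokine TWEAK, read 7.46 to 7.96 log2 in doxorubicin hearts and 9.04 to 9.89 log2 in control hearts, a difference of -1.65 (SE 0.18, adjusted p = 0.00139). The kinase-like adaptor gene Irak2 of interleukin-1 and Toll-like receptors fell by 1.55 (SE 0.12) and the interleukin-1 receptor gene Il1r1 by 1.07 (SE 0.13), and both further Il1r1 probe sets were called too (-0.54 and -0.56). Tlr2 fell by 0.74 (SE 0.08). The others that fell, named after their values were seen, were the ubiquitin ligase gene Birc3 (-0.97), the adaptor gene Myd88 (-0.47) and Tnfrsf1a (-0.32, adjusted p = 0.0495).

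Of 10 IKK and upstream kinase genes measured out of 12, none passed in limma (3 lower and none higher at an unadjusted p under 0.05), and the median was -0.06. The IKK genes Chuk (0.19, SE 0.08) and Ikbkb (0.20, SE 0.12, second probe set -0.07) did not pass and were named after their values were seen. The IKK genes Ikbkg and Ikbke had no probe set annotated to them alone and were not analysed. Of the 10 differences, 6 were negative. Ripk1, a kinase gene at the TNF receptor complex, stood at -0.46 (SE 0.13, adjusted p = 0.119) and Map3k14, which encodes the NF-kB-inducing kinase, at -0.19 (SE 0.06, adjusted p = 0.209). None passed among 9 of 13 genes for other family members and partners of the Tnfaip3 protein (1 lower and none higher unadjusted), whose median was 0.05. Rel, the gene of a further NF-kB subunit, had no probe set annotated to it alone and was not among the 9. Tnip1, which encodes a ubiquitin-binding partner of the Tnfaip3 protein, stood at -0.23 (SE 0.07) and Nfkbid, another nuclear IkB gene, at 0.23 (SE 0.11).

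**Figure D4:**
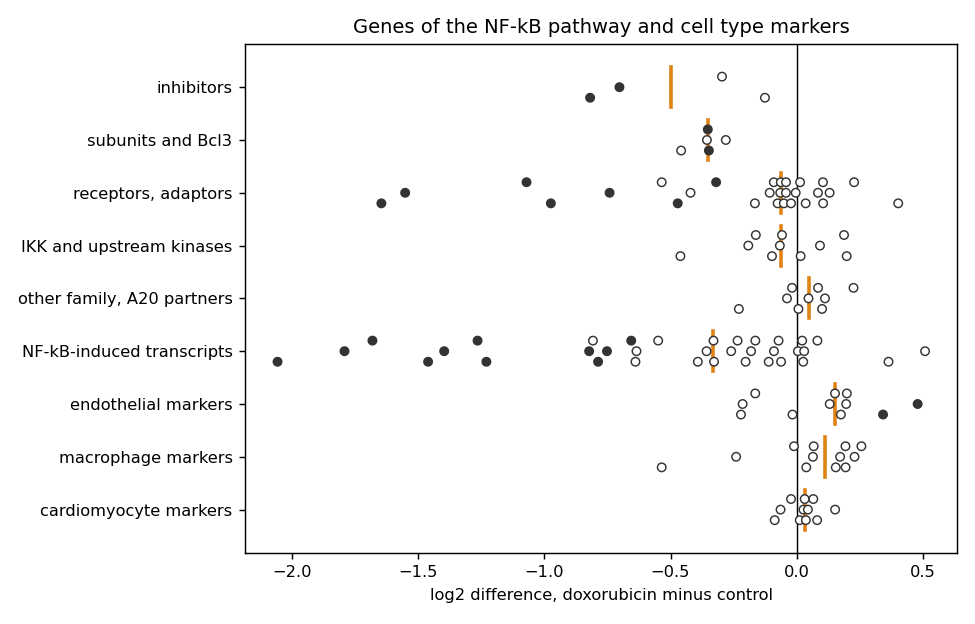
Log2 difference of each measured gene, doxorubicin minus control, by list, with orange bars at list medians and filled points at an adjusted p under 0.05. Called genes stand on the lower side in the inhibitor, subunit, receptor and target lists, and the 2 called endothelial markers stand on the higher side.

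Below NF-kB, 35 of 36 listed target genes were measured. Of these 11 fell, none rose and 24 did not pass (2 of the 24 were higher at an unadjusted p under 0.05). Among all 14217 genes 2.17% were called lower and 0.802% higher. The median over the 35 was -0.33, and 2 of them lay in the dimmest 25% of probe sets. The endothelial adhesion gene Sele read 7.16 to 7.65 log2 in doxorubicin hearts, against 8.98 to 9.86 log2 in control hearts (-2.06, SE 0.18, adjusted p = 3.17e-04). The chemokine gene Ccl3 (-1.79, SE 0.13), the cytokine gene Tnf (-1.68, SE 0.14, second probe set -1.41) and the early response gene Ier3 (-1.40, SE 0.09) fell as well. Not every target followed: Icam1 stood at -0.36 (adjusted p = 0.188) and Sod2, the mitochondrial superoxide dismutase gene, at 0.0054 (adjusted p = 0.992), both named after their values were seen. Several of these genes already led earlier results of the same arrays, so their falls are no independent support for those of the inhibitors.

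Heart muscle markers were bright in every heart, as the labelled tissue calls for, and no marker of another cell type fell. Of 11 cardiomyocyte markers none passed (none unadjusted), with group means of 11.9 to 14.1 log2. Of 11 endothelial markers 2 rose, the receptor-modifying protein gene Ramp2 (0.48, SE 0.08) and the receptor kinase gene Tie1 (0.34, SE 0.06). In the same comparison 0.802% of all genes were called higher. The endothelial median was 0.15, and the summed intensity of these markers ranged over 4263 to 4978 in doxorubicin and 4431 to 4725 in control hearts. None of 12 macrophage markers passed by its brightest probe set (1 higher and 2 lower unadjusted, median 0.11), while a second probe set of Laptm5, which encodes a lysosomal membrane protein of blood cells, rose by 0.48 (SE 0.10, adjusted p = 0.0495). The macrophage markers had summed intensities of 2472 to 3190 in doxorubicin and 2277 to 2967 in control hearts. None of the 10 neutrophil, mast cell and lymphocyte markers, the 10 fibroblast markers or the 9 atrial and fat markers passed (none unadjusted). Their medians were 0.04, 0.04 and 0.56. Cd3e, Csf3r, Ms4a1 and S100a8, and Plin1 of the atrial and fat markers, lay in the dimmest 25% of probe sets. The atrial and fat markers summed to 5710 to 26986 in doxorubicin and 5114 to 14871 in control hearts, and the fibroblast markers to 13759 to 18275 in doxorubicin and 10256 to 16658 in control hearts. The part of other cell types in the falls was not tested. In RNA of a whole heart, fewer cells of a type and less RNA per cell cannot be told apart.

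A technical measure of the arrays moved with the groups. The hybridization control level, the mean of 18 probe sets for transcripts added to the labelled sample, was 10.02 ± 0.08 log2 in doxorubicin and 10.32 ± 0.17 log2 in control hearts (SD, n = 4), with ranges of 9.97 to 10.13 and 10.21 to 10.57 (exact two-sided permutation p = 0.0286, the smallest possible). With this level as a covariate none of the 12 probe sets was called by limma (2 at an unadjusted p under 0.05), and 92 of 31042 were. Nfkbia then stood at -0.55 (adjusted p = 0.186), Nfkbiz at -0.33 (adjusted p = 0.795), Rela at -0.35 (adjusted p = 0.597) and Nfkb1 at -0.29 (adjusted p = 0.777). Without the covariate these genes stood at -0.82, -0.70, -0.35 and -0.35, so the Rela call was lost with no smaller difference. Since the groups do not overlap in this level, it and doxorubicin cannot be fully told apart in 8 arrays. Control 3 had the highest hybridization level and the highest Nfkbia and Nfkbiz. Control 1 was the highest of the 8 arrays for 8 of the 12 probe sets, and for 18.9% of all probe sets. Among the control hearts alone it was the highest for 8 of the 12, and for 29.5% of all probe sets.

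**Figure D5:**
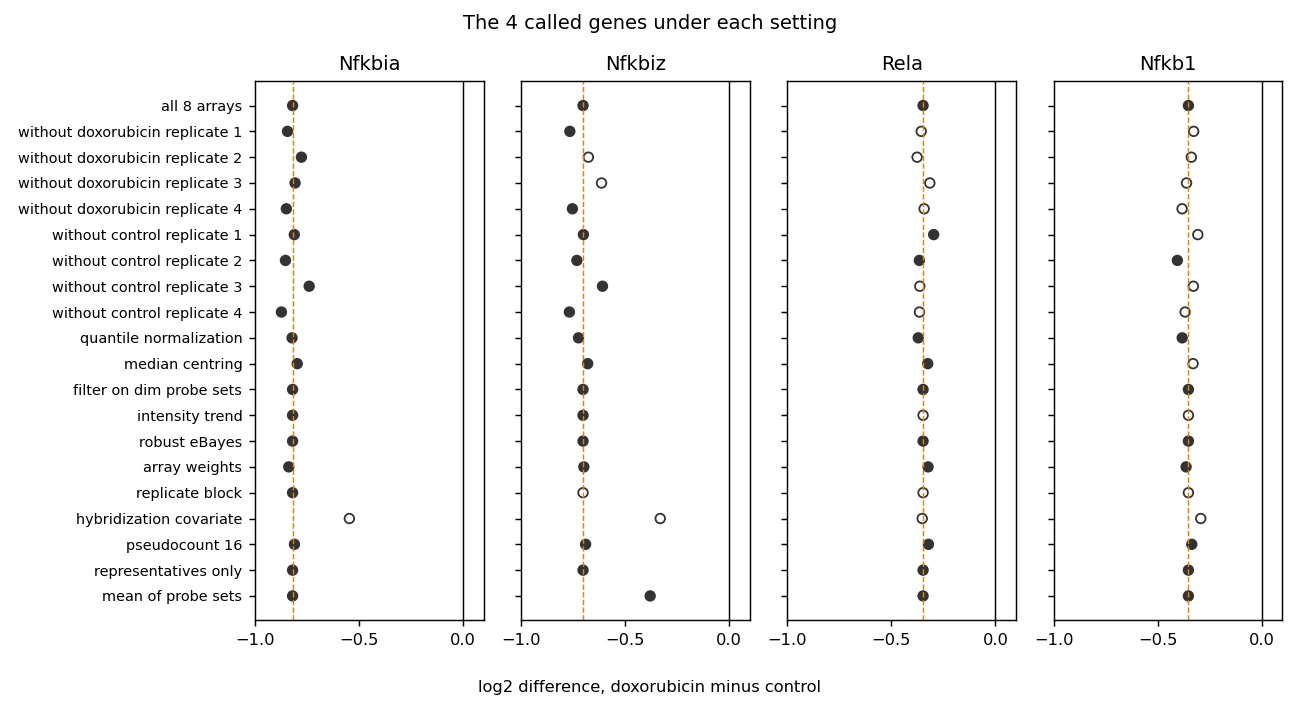
Log2 difference of the 4 called genes, doxorubicin minus control, with all 8 arrays and under each alternative, where filled points have an adjusted p under 0.05 and the dashed line marks the value with all arrays. Every value is negative, and the hybridization covariate gives the smallest fall of Nfkbia and Nfkbiz and leaves all 4 genes uncalled.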

How the data were processed

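RNA from 8 perfused rat hearts was measured on Affymetrix arrays. The deposited intensity values are probe set values made by the authors with RMA (background correction, normalization between arrays, probe summary), per the submitters' processing notes, and its version is not given in the sources used here. They were on a linear scale (array medians 29.9 to 31.0), so log2 was taken with no offset. Arrays have no sequencing depth, so their number limits the precision.

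Of 31099 probe sets, 57 AFFX controls were left out. A single symbol, from the platform annotation updated by gene ID, was given for 20826 probe sets, while 436 had several symbols and 9780 had none. A listed gene without a single-symbol probe set is counted as not measured, though another probe set may read it. For gene counts the brightest probe set on average stood for each of 14217 genes. Groups were compared with limma 3.58.1 in R 4.3.3 (lmFit, eBayes, no covariate), with Benjamini-Hochberg adjustment over 31042 probe sets, checked on simulated data. The labels call the hearts biological replicates. Same-numbered hearts did not deviate together (r -0.18 to 0.06), so the numbers were not used as pairs.

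From each pathway list the text names up to 4 called genes with the smallest p, or the first 2 where fewer than 2 were called. Members and lists were chosen with earlier results of these data known. Single array values were tested with exact permutation tests, and alternatives covered scaling, filters, moderation, weights, the replicate block, the hybridization covariate, probe set choice and leaving out arrays. Figures used matplotlib 3.10.9 under Python 3.11.15.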

Additional observations from a re-analysis of the deposited data

Results flagged for a closer look

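In 50 groups of 4 arrays, 3 had a sample far from the others by Dixon's test, where chance flags about 1 group in 20. Control 1 stood apart for Rela, with a gap of 0.97 of the whole range of the control hearts. Among control hearts Ier3 had one heart apart, control 2 on the low side, with a gap of 0.839 of the range. The hybridization control level of doxorubicin 1 was above that of the other doxorubicin arrays by 0.848 of their range. Their part in the differences was measured only by leaving these arrays out: Rela stayed called without control 1 (-0.30, adjusted p = 0.0496), and Nfkbia did so without doxorubicin 1.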

How the results depend on the processing

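The 9 genes, each by its brightest probe set, kept a negative difference under all 19 alternatives, and Nfkbia kept its call under 18 of them, all but the hybridization covariate. Calls of the subunits depended on the processing. Of 7 subunit probe sets 1 was called with median centring, 0 with an intensity trend in eBayes (5 at an unadjusted p under 0.05) and 0 to 4 when one array was left out. With the replicate block, 1 inhibitor probe set (Nfkbia) and 0 subunit probe sets were called (5 of these unadjusted), Nfkbiz standing at an adjusted p of 0.0744, Rela at 0.074 and Nfkb1 at 0.103. The block also brought Ripk1 past the threshold (-0.46, adjusted p = 0.0429), and 511 probe sets were called against 687 without it. No doxorubicin array correlated best with its own number among control arrays. With the hybridization covariate the counts were 92 of all probe sets, 0 inhibitor and 0 subunit probe sets (1 unadjusted in each) and 4 of 82 pathway genes against 18, and the medians were -0.24 for inhibitor and -0.29 for subunit genes. Nfkbiz minus Rela reversed to 0.020 (-0.35 without the covariate), an alternative chosen for this pair after seeing the data. Leaving out 1 array gave 397 to 854 probe sets, 1 to 2 inhibitor probe sets and 13 to 17 pathway genes. Without control 1, 15 of the 16 called pathway genes were lower, against 18 of 18 with all 8 arrays. Over the 8 left-out arrays the medians were -0.57 to -0.41 for inhibitor and -0.41 to -0.30 for subunit genes. The hybridization difference ranged from -0.34 to -0.22 and lost the threshold without control 3 (exact permutation p = 0.0571). The groups still did not overlap there, with 10.13 the highest doxorubicin level and 10.21 the lowest control level. The dim Nfkbiz probe set ranged from -0.16 to 0.04 when one array was left out, and reversed without control 1 (0.038) and without control 4 (0.03). The causes were not tested. The number of arrays and the brightness of dim probe sets limit what could be detected.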
